A study of Mus musculus with 16 samples.

Results

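Human Dicer put back into mouse cells that lack their own Dicer was compared with the endogenous mouse enzyme, using the miRNAs that each left in the cell. The comparison takes 4 of the 16 small RNA libraries of the series, chosen by their labels. In 2 libraries (KO + hsDicer), C57BL/6 mesenchymal stem cells of genotype Dicer -/- had been transfected with human Dicer. In the other 2 (WT + mCherry), C57BL/6 mesenchymal stem cells of genotype Dicer f/f, which keep a working mouse gene, had been transfected with mCherry, a red fluorescent protein. Both groups are therefore transfected mouse cells and share the mouse precursors, the mouse Drosha and the mouse Argonautes. They differ both in the Dicer protein and in the cells that carry it, and these cannot be told apart within the 4 libraries. Total RNA was taken with Trizol and RNA of 15 to 50 nt was cut from a gel before Illumina small RNA sequencing. The labels do not say that replicates 1 and 2 came from separate cultures, so the spread between them may be technical, and every p-value measures only that spread.

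Dicer is the RNase III enzyme that cuts the hairpin precursor of a miRNA near its loop and frees a duplex of its 5p and 3p arms. The cut sets the 3′ end of the 5p arm and the 5′ end of the 3p arm, whereas the nuclear enzyme Drosha has already set the 5′ end of the 5p arm and the 3′ end of the 3p arm. One arm of the duplex is then kept in Argonaute. Bases 2 to 8 of the kept arm, the seed, choose its target mRNAs, so a shift of a 5′ end changes the targets and a shift of a 3′ end does not change the seed. Enzymes of the tailing family can later add A or U to the 3′ end.

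The miRNAs on which the results turn are printed with the seed in capitals, as RefSeq gives their mature sequence on GRCm38.p6. The first group holds the most abundant miRNAs, the next those that were lower, and the last the cluster that was higher with human Dicer.
miR-22-3p: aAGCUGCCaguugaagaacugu
miR-21a-5p: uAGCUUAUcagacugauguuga
miR-29b-3p: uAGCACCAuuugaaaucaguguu
let-7c-5p: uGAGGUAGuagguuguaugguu
miR-24-3p: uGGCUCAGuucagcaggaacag
miR-125b-5p: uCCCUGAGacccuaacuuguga
miR-26a-5p: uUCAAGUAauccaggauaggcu
miR-148a-3p: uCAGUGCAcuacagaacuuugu
miR-183-5p: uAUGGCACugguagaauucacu
miR-96-5p: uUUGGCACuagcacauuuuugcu
miR-182-5p: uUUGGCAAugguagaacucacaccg
The mature miR-22-3p lies at chr11:75463772-75463793 on the plus strand, in an exon of the noncoding gene Mir22hg. The mature miR-21a-5p lies at chr11:86584120-86584141 on the minus strand, within an annotated exon of the protein-coding gene Vmp1. The arms miR-183-5p (chr6:30169711-30169732), miR-96-5p (chr6:30169506-30169528) and miR-182-5p (chr6:30165962-30165986) lie beside each other on the minus strand of chromosome 6, outside any other gene annotated on that strand. The arm miR-148a-3p lies at chr6:51269829-51269850 on the same strand, also between genes. The other 5 arms come from 2 loci each.

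The KO + hsDicer libraries held 5489250 (replicate 1) and 2707367 (replicate 2) miRNA reads, and the WT + mCherry libraries held 8195383 and 7686307. As a share of all inserts of 15 nt or more, miRNA reads made up 38.1% and 14.4% with human Dicer and 47.4% and 37.5% in WT cells. Knockout cells given mCherry, which mark the level without Dicer, had 1.54% and 0.293%. The transcript of Dicer itself was not measured here. Read length was 41 nt for both replicate 1 libraries and 51 nt for both replicate 2 libraries. The libraries differed by replicate number in how reads fell over distinct miRNA sequences (forms). With human Dicer, replicate 1 held 444 forms, of which 252 had fewer than 20 reads, 43 had at least 20 but under 2000 and 149 had 2000 or more, and replicate 2 held 1429 forms with 271, 1069 and 89 in these classes. In WT cells, replicate 1 held 442 forms, with 204, 49 and 189 in these classes, and replicate 2 held 1940 forms with 305, 1455 and 180. Both replicate 1 libraries thus had few forms in the middle class. The part this plays in the results was not tested, and each result is given for both replicate numbers.

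**Figure D1:**
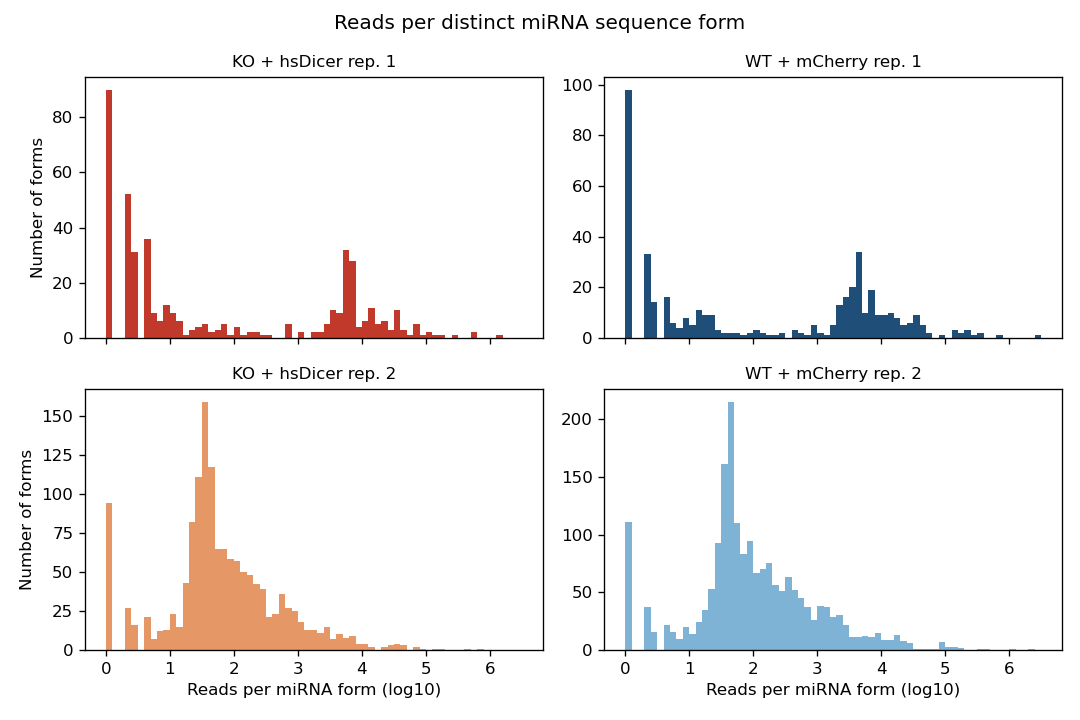
Number of distinct miRNA sequence forms (y axis) by the number of reads each form had (x axis, log10), with 1 panel per library, KO + hsDicer on the left. In both replicate 1 libraries few forms have at least 20 but under 2000 reads (43 with human Dicer and 49 in WT cells), whereas most forms of the replicate 2 libraries lie there (1069 with human Dicer and 1455 in WT cells).

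The 25 arms of mesenchymal marker miRNAs that had reads, among them those of miR-21a, miR-22, miR-29b, miR-31, miR-199a and miR-214, made up 58.9% and 61.1% of miRNA reads with human Dicer and 59.4% and 63.2% in WT cells. Most of this came from miR-22-3p, miR-21a-5p and miR-29b-3p, which other cell types also make, and the other 22 arms held 5.05% and 6.74% with human Dicer and 4.43% and 8.47% in WT cells. Of the markers of other cells, those of epithelium summed to at most 0.000886% of miRNA reads in any of the 4 libraries, blood to 0.000208%, pluripotent cells to 0.0126%, muscle to 0.0304%, neurons to 0.0365% and endothelium to 0.115%, and the liver miRNA miR-122 had no reads. These sums count reads that match the hairpin throughout. With up to 2 unmatched 3′ bases allowed, the highest sums were 0.00167% for epithelium, 0.00104% for blood and 0.0641% for neurons. The pluripotent markers had reads in replicate 2 of KO + hsDicer and in none of the other 3 libraries, on 2 arms.

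Human and mouse Dicer shared 7 of their 10 most abundant arms in replicate 1 and 6 of 10 in replicate 2. The arm miR-22-3p, known for its roles in heart and blood cells, came first in all 4 libraries, with 28.6% and 28.1% of miRNA reads with human Dicer and 38.1% and 29.7% in WT cells (28.3% ± 0.353 against 33.9% ± 5.93, SD, n = 2 each). The human Dicer libraries lay below both WT libraries, replicate 2 by little. The growth-promoting miR-21a-5p had 14.7% and 9.88% with human Dicer and 13.0% and 10.9% in WT cells, so the groups overlapped. The arm miR-29b-3p, known to hold down collagen and other matrix mRNAs, had 10.6% and 16.4% with human Dicer and 3.99% and 14.2% in WT cells. It was the higher with human Dicer at both replicate numbers, but its 2 WT values lay farther apart than the group means did. Without WT + mCherry replicate 2 its log2 change was 1.76 and it passed the edgeR test (adjusted p = 0.000592), the 1 arm that did so when a library was left out, and without WT + mCherry replicate 1 it was -0.0715. For let-7c-5p the values were 4.90% and 3.01% with human Dicer, against 5.32% and 2.56% in WT cells. For miR-24-3p they were 1.58% and 6.67% with human Dicer, against 0.680% and 5.24% in WT cells. Both differed more between replicate numbers than between enzymes. These values count reads that match the hairpin throughout. Where up to 2 unmatched 3′ bases were allowed, miR-24-3p had 2.07% and 7.12% with human Dicer and 2.20% and 6.71% in WT cells, so that its order in replicate 1 turned. The top 10 arms held 71.0% and 75.8% of reads with human Dicer and 77.3% and 73.1% in WT cells (2-sided exact permutation p = 0.667, n = 2 each). The effective number of arms, the exponential of the Shannon entropy, was 20.7 and 20.4 with human Dicer and 15.9 and 21.3 in WT cells (exact permutation p = 1, n = 2 each). With 2 libraries against 2, the smallest p such a test can give is 0.333.

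**Figure D2:**
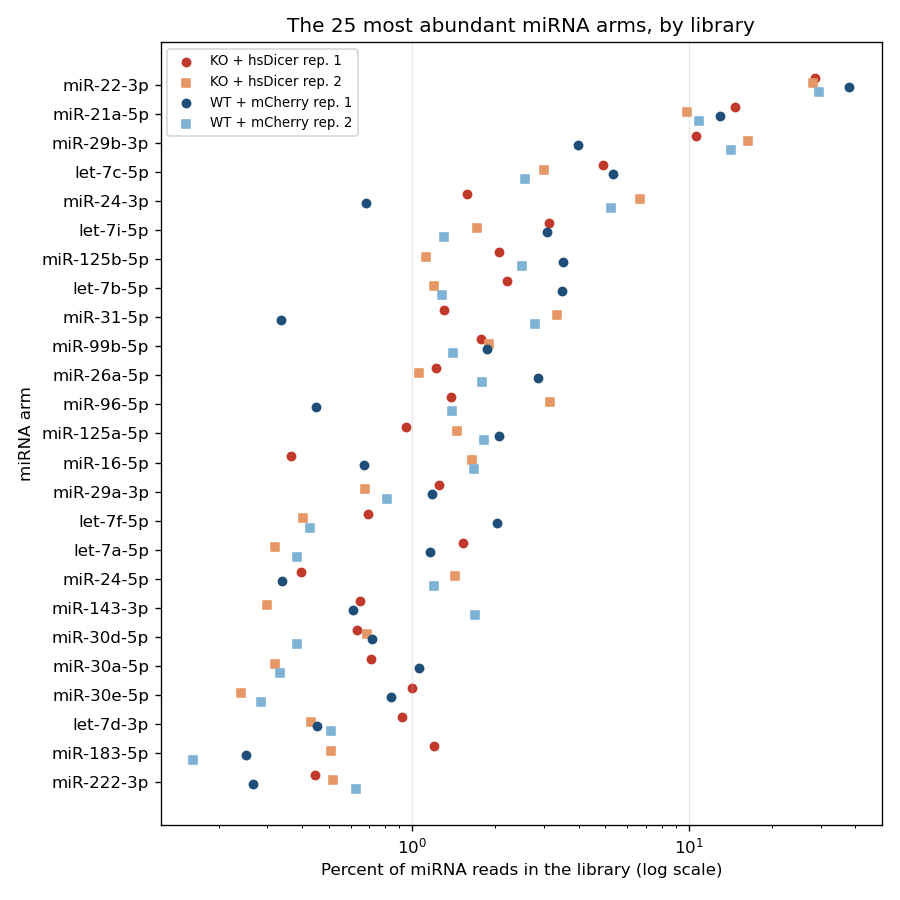
Percent of miRNA reads (x axis, log scale) for the 25 arms of highest mean percent (y axis), with 1 point per library, KO + hsDicer in red and orange and WT + mCherry in blue. The arm miR-22-3p leads in all 4 libraries, and circles (replicate 1) and squares (replicate 2) often separate more than the colours do, as for miR-24-3p and miR-31-5p.

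The rank order of the miRNAs was closest between the enzymes in replicate 2. Over the 161 arms with a mean of 100 CPM (miRNA reads scaled to 1e+06 per library) or more, Spearman's rho between human and mouse Dicer was 0.89 in replicate 2 and 0.69 in replicate 1. Between replicates 1 and 2 it was 0.63 with human Dicer and 0.71 in WT cells. These are descriptions across arms, which are not independent. In replicate 2, 118 of the 157 arms with reads in both libraries lay within 2-fold of each other, and the median difference was 0.52 on the log2 scale. In replicate 1, 41 of 122 arms lay within 2-fold and the median difference was 1.74. The same measure between replicates was 2.03 with human Dicer and 1.24 in WT cells, so the enzymes differed by less than replicates did in replicate 2, and in replicate 1 by a value between those of the 2 groups. Of the top 50 arms, 46 were shared between human and mouse Dicer in replicate 2 and 39 in replicate 1.

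**Figure D3:**
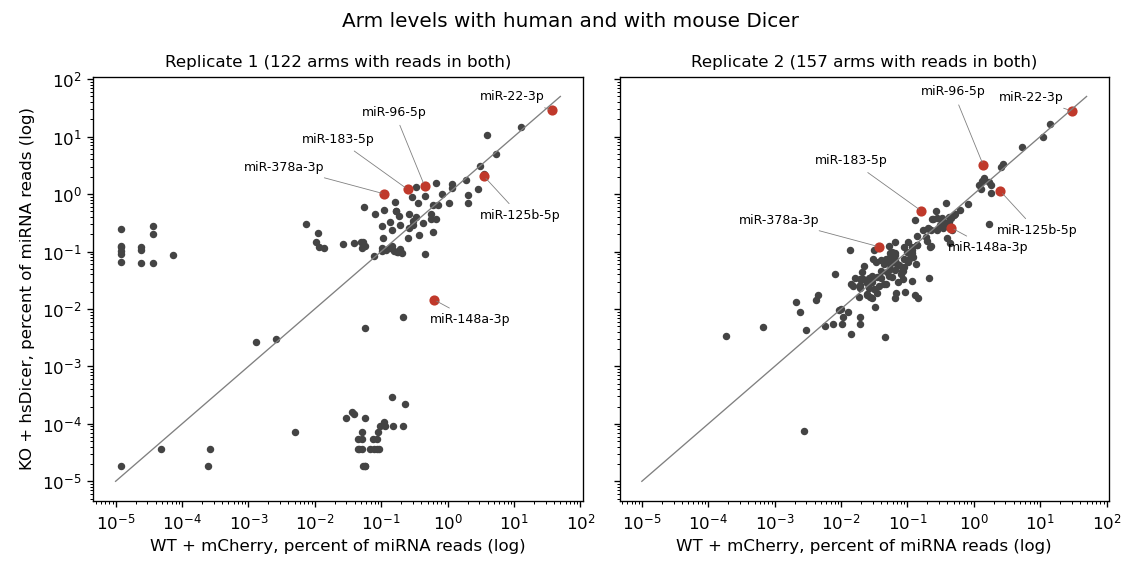
Percent of miRNA reads with human Dicer (y axis) against WT cells (x axis), both on log scales, for arms with a mean of 100 CPM or more and reads in both libraries, in 1 panel per replicate. The line marks equal shares, and red points carry the names of 6 arms. Replicate 2 lies along the line (157 arms), whereas in replicate 1 (122 arms) groups of arms lie near the floor of 1 library.

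No arm passed the test of levels. The quasi-likelihood test of edgeR called 0 of 464 arms at an adjusted p under 0.05 (0% called), 1 arm had an unadjusted p under 0.05, and the common biological coefficient of variation was 2.67. With replicate number as a block in the edgeR fit this coefficient was 1.42, with 0 arms called and 93 at an unadjusted p under 0.05. DESeq2 called 3 arms, with 15 at an unadjusted p under 0.05. Each of the 3 had 0 reads in both WT libraries: miR-5128-3p had 4674 and 0 reads with human Dicer, miR-294-3p had 0 and 298, and miR-702-5p had 2494 and 78. The test summed by seed called 0 of 377 seed families (0%), with 1 at an unadjusted p under 0.05, and DESeq2 called 3, with 11 at an unadjusted p under 0.05. At a spread of this size the count of 0 does not show that levels were alike. Without a test, 26 of the 161 abundant arms (16.1%) had both human Dicer values above both WT values, and 29 (18%) had both below. The members named next are read against these shares.

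The miR-183, miR-96 and miR-182 cluster stood higher with human Dicer. This cluster, known from sensory cells and from many tumours, is transcribed as a unit, and its main arms have seeds that are near copies of each other, as the printed sequences show. The arm miR-183-5p had 1.21% and 0.509% of miRNA reads with human Dicer, against 0.252% and 0.162% in WT cells. Both human Dicer values lay above both WT values, with log2 ratios of 2.26 in replicate 1 and 1.65 in replicate 2. The arm miR-182-5p had 0.416% and 0.351% with human Dicer and 0.183% and 0.13% in WT cells, again with no overlap. The arm miR-96-5p had 1.39% and 3.14% with human Dicer and 0.45% and 1.40% in WT cells. It was higher at each replicate number, by 1.62 and 1.17 on the log2 scale, although the lower human value lay just under the higher WT value. Together the 6 arms of the cluster made up 3.01% and 4.01% with human Dicer and 0.885% and 1.69% in WT cells, and none passed the edgeR test over all arms (miR-183-5p, log2 change 2.05 ± 1.26 SE, adjusted p = 0.998).

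The same cluster was compared in 2 further groups of knockout cells, given a human Dicer with a changed helicase or PAZ domain. It summed to 2.32% and 3.01% with the helicase change K70A and to 2.84% and 4.03% with the PAZ change Y971A/Y972A, against 0.885% and 1.69% in WT cells. At each replicate number these sums lay above WT. These groups share the WT libraries with the comparison of human Dicer, and the RNase III mutants were not compared here. The arms miR-378a-3p and miR-7a-5p also lay above WT in each of these groups. For miR-378a-3p, made from an intron of a metabolic gene, values were 1.00% and 0.121% with human Dicer, 0.814% and 0.217% with K70A, 0.314% and 0.0798% with Y971A/Y972A, and 0.112% and 0.0377% in WT cells. For miR-7a-5p they were 0.726% and 0.105% with human Dicer, 0.532% and 0.0834% with K70A, 0.724% and 0.106% with Y971A/Y972A, and 0.159% and 0.0315% in WT cells. At each replicate number all 3 human enzymes were above WT for both arms. Whether the cells or the enzyme carry these differences was not tested.

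Among the other arms of the higher group, miR-92a-3p, a member of the growth-linked miR-17-92 cluster, had 0.498% and 0.501% with human Dicer and 0.167% and 0.271% in WT cells. The arm miR-423-3p had 0.884% and 0.363% with human Dicer and 0.294% and 0.243% in WT cells. The let-7 member let-7d-5p had 0.711% and 0.389% with human Dicer and 0.359% and 0.277% in WT cells. None of the 3 passed the edgeR test. Among the 50 most abundant arms, the 5 that gained most in mean rank were miR-378a-3p (mean rank 37 with human Dicer, 84.5 in WT cells), miR-7a-5p (41.5 and 82.5), miR-15b-5p (37.5 and 71), miR-183-5p (17 and 44.5) and miR-32-5p (44.5 and 67.5). Of these, miR-15b-5p and miR-32-5p gained through replicate 1 of WT cells, where they had 0.0111% and 0.0106% of reads. With unmatched 3′ bases allowed, miR-182-5p took the place of miR-32-5p among these 5.

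The lower arms included members of the miR-125 and miR-26 families. The arm miR-125b-5p, which is known to restrain differentiation, had 2.05% and 1.13% with human Dicer, against 3.51% and 2.51% in WT cells. Both human Dicer values lay below both WT values (log2 change -0.92 ± 0.642 SE, edgeR adjusted p = 0.998). Its relative miR-125a-5p, of the same seed, had 0.95% and 1.46% with human Dicer and 2.06% and 1.82% in WT cells. The arm miR-26a-5p, known to act on Ezh2, had 1.22% and 1.06% with human Dicer and 2.85% and 1.79% in WT cells, again without overlap. With K70A it had 1.37% and 0.882%, below the WT library of the same number, and with Y971A/Y972A 3.07% and 1.95%, above it. The arm miR-322-5p, of the miR-15/16 seed, had 0.19% and 0.17% with human Dicer and 0.375% and 0.391% in WT cells, a log2 ratio of -0.98 in replicate 1 and -1.20 in replicate 2. The arm miR-148a-3p had 0.0145% and 0.26% with human Dicer and 0.621% and 0.455% in WT cells. In replicate 1 with human Dicer, 89.6% of its reads carried unmatched 3′ bases. With these allowed its values were 0.122% and 0.246% with human Dicer and 0.57% and 0.415% in WT cells, still without overlap. By exact matching the 5 arms that lost most in mean rank were miR-148a-3p (mean rank 67.5 with human Dicer, 21 in WT cells), miR-99a-5p, miR-151-5p, miR-322-5p and miR-199a-5p. With unmatched 3′ bases allowed they were miR-130a-3p, miR-140-5p, miR-99a-5p, miR-151-5p and miR-148a-3p (53.5 with human Dicer, 24 in WT cells). By exact matching miR-99a-5p had 0 and 10273 reads, unscaled, with human Dicer and 532 and 35113 in WT cells. The arm miR-151-5p had 0.0899% and 0.443% with human Dicer and 0.463% and 0.514% in WT cells. With unmatched bases allowed miR-140-5p had 9 and 8070 reads with human Dicer and 16449 and 31385 in WT cells. Replicate 1 with human Dicer was the lowest library for each of them. The arm miR-129-5p had 0.0156% in replicate 2 with human Dicer and 0.147% in WT cells, and in replicate 1 its share with human Dicer was 3.64e-05% against 0.0786%. The replicate 1 share with human Dicer lies at the floor, below that of 3 reads in this library (5.47e-05%).

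By family, the test called no member of any list in either direction. Counts of arms whose groups did not overlap are of abundant arms, beside 16.1% higher and 18% lower over all 161. The let-7 family summed to 15.0% and 7.84% with human Dicer and 16.7% and 7.26% in WT cells, so it differed more between replicate numbers than between enzymes. The median log2 change of its 18 tested arms was -0.13, beside -0.01 over all 464 arms tested, and 2 of 11 abundant arms lay higher without overlap and 0 lower. The miR-17-92 cluster with its paralogs, which drives cell division, summed to 1.30% and 1.44% with human Dicer and 0.583% and 0.925% in WT cells. Its 20 tested arms had a median log2 change of 0.47, and of 12 abundant arms 4 lay higher and 2 lower without overlap. The miR-29 family summed to 11.9% and 17.1% with human Dicer and 5.17% and 15.0% in WT cells. The miR-30 family summed to 2.44% and 1.66% with human Dicer and 2.80% and 1.40% in WT cells. The miR-23/27/24 family summed to 2.65% and 8.56% with human Dicer and 1.18% and 7.39% in WT cells by exact matching. With unmatched 3′ bases allowed it summed to 3.14% and 9.44% with human Dicer and 2.94% and 9.90% in WT cells, so that the order in replicate 2 turned. The miR-99, miR-100 and miR-125 family summed to 5.15% and 4.98% with human Dicer and 7.65% and 6.38% in WT cells, and 3 of its 8 abundant arms lay lower without overlap and 0 higher. The miR-15/16 family summed to 0.863% and 2.61% with human Dicer and 1.44% and 2.94% in WT cells, and 2 of its 8 abundant arms lay lower and 0 higher. In the miR-29, miR-30 and miR-23/27/24 families no abundant arm (of 2, 6 and 8) was without overlap.

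Of the miRNAs made by unusual routes, miR-320-3p, whose capped precursor skips Drosha, had 0.261% and 0.119% with human Dicer and 0.265% and 0.0888% in WT cells. The arm miR-484-5p, also from a capped precursor, had 0.115% and 0.0956% with human Dicer and 0.0507% and 0.0644% in WT cells, without overlap. The miRNA miR-451a, matured by Argonaute without Dicer, had 0 exactly matched reads in all 4 libraries, which allows at most 0.000111% of miRNA reads at 3 counts in the shallowest, replicate 2 with human Dicer. This bound does not cover reads with unmatched 3′ bases. These limits cover counting error only.

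The same arm was the main product in all 4 libraries for 55 of 61 hairpins, and for 61 of 66 with unmatched 3′ bases allowed. The share of all miRNA reads on 5p arms was 49.4% and 41.7% with human Dicer and 50.0% and 41.2% in WT cells (45.6% ± 5.44 against 45.6% ± 6.26, SD, n = 2 each, exact permutation p = 1). Of 61 hairpins with 1000 or more reads in each of the 4 libraries, 37 gave most reads from the 5p arm in all 4, 18 from the 3p arm in all 4, and 6 changed. The median absolute difference in percent 5p between enzymes was 0.674 percentage points in replicate 2, where 51 of 61 differed by less than 5 points. In replicate 1 it was 0 points, 46 of 61 differed by less than 5 points and 9 by more than 20. There 13 were higher and 15 lower with human Dicer, and the others had no reads of the minor arm in either library. An example is miR-21a, whose 3p arm had 0 reads in both replicate 1 libraries and 483 and 1894 in replicate 2. The 0 points therefore do not show that arm choice was alike. Between replicates of 1 group the median absolute difference was 3.01 points with human Dicer and 3.28 in WT cells. By hairpin, miR-22 gave 0.433% and 0.370% of its reads from the 5p arm with human Dicer and 0.382% and 0.400% in WT cells, and miR-21a gave 100% and 99.82% with human Dicer and 100% and 99.77% in WT cells.

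The edgeR test of 5p to 3p ratios called 0 of 161 hairpins (0%), with 2 at an unadjusted p under 0.05, and limma called 0, with 0 at an unadjusted p under 0.05. Each of the 8 hairpins of lowest p with the same direction of the ratio at both replicate numbers had an arm with 0 or 1 reads in at least 1 library. The first of them, miR-125b, gave 94.1% and 97.9% from the 5p arm with human Dicer and 100% and 98.5% in WT cells (edgeR adjusted p = 1). The passenger arm miR-149-3p had 3565 and 92 reads with human Dicer and 1 and 14 reads in WT cells, so that miR-149 gave 59.9% and 92.9% of its reads from the 5p arm with human Dicer and 100% and 99.1% in WT cells. Of the 6 hairpins whose main arm changed, miR-28a, miR-17, miR-872 and miR-145a did so between the replicate 1 libraries, and miR-140 and miR-27a between the replicate 2 libraries. In replicate 1, miR-17 gave 61.8% from the 5p arm with human Dicer and 0.0346% in WT cells, whereas in replicate 2 it gave 80.9% with human Dicer and 62.0% in WT cells. The hairpin miR-27a gave 97.0% and 75.3% from the 5p arm with human Dicer and 98.4% and 43.4% in WT cells. These values rest on the matching, since 98.0% and 93.4% of miR-27a-3p reads with human Dicer and 98.3% and 89.1% in WT cells carried unmatched 3′ bases. With these allowed miR-27a gave 39.2% and 17.4% from the 5p arm with human Dicer and 50.5% and 7.73% in WT cells, so in replicate 2 the 3p arm was the main one under both enzymes. The hairpin miR-140 gave 0.0323% and 51.6% from the 5p arm with human Dicer and 26.5% and 42.4% in WT cells. With unmatched 3′ bases allowed it gave most reads from the 3p arm in all 4 libraries, as did miR-28a. In replicate 2, 92 of the 95 hairpins with 1000 or more reads in both libraries kept the same main arm, and miR-27a, miR-140 and miR-532 did not. With unmatched 3′ bases allowed, 101 of 103 did, and miR-324 and miR-532 did not. The hairpin miR-532 gave 78.2% from the 5p arm with human Dicer and 34.3% in WT cells in that replicate by exact matching, and 83.1% with human Dicer and 42.7% in WT cells with unmatched bases allowed.

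**Figure D4:**
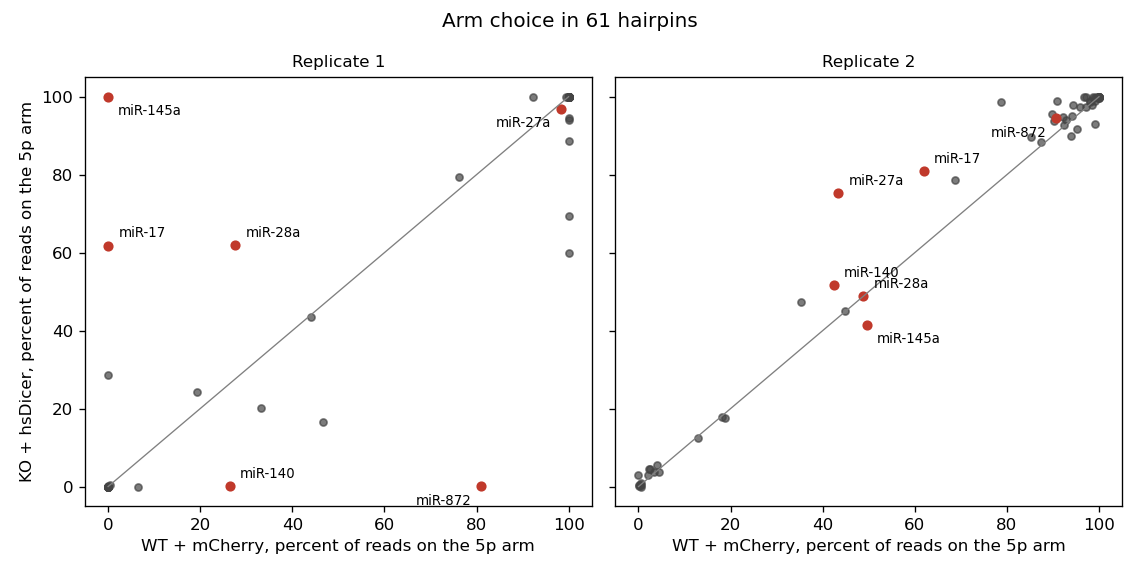
Percent of a hairpin's reads that came from its 5p arm with human Dicer (y axis) and in WT cells (x axis), for 61 hairpins with 1000 or more reads in each library by exact matching, in 1 panel per replicate. The line marks equal shares, and red points name the 6 hairpins whose main arm changed between libraries. In replicate 2 the hairpins lie along the line, and 51 of 61 differ by less than 5 percentage points.

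The 5′ end of the 3p arm, which Dicer sets and which fixes its seed, lay at its usual base in all 4 libraries for 20 of 24 arms. The usual end is the end with the highest summed share of reads over the 4 libraries, and 20 counts the arms where it was also the most used in each library among ends within 2 nt. End precision is the percent of an arm's reads in a library that have its usual end. Over 24 3p arms with 100 or more reads in each library, the median precision of this end was 99.99% and 96.3% with human Dicer and 99.99% and 97.1% in WT cells (98.2% ± 2.59 against 98.6% ± 2.04, SD, n = 2 each, exact permutation p = 0.667). The limma test of the mean end position called 0 of 24 arms (0%), with 0 at an unadjusted p under 0.05, and edgeR on the usual end against other ends also called 0, with 0 at an unadjusted p under 0.05. Without KO + hsDicer replicate 2, limma called miR-16-3p and miR-24-3p. Both human values lay above both WT values for 1 arm (4.17%) and below for 3 (12.5%), where above means a later start. In replicate 2 the shift of human against mouse Dicer had a median of -0.01 nt over 34 arms with 1000 or more reads in both libraries. The arm miR-22-3p had mean positions 0.0129 and 0.00651 nt from its usual 5′ end with human Dicer and 0.01 and 0.00451 nt in WT cells. The arm miR-214-3p, which had more than 1 start under both enzymes, stood at 0.31 and 0.37 nt with human Dicer and 0.48 and 0.37 nt in WT cells. The arm miR-16-3p lay at -0.999 and -0.0571 nt with human Dicer and at 0.00117 and -0.0378 nt in WT cells, so it started 1 base early in replicate 1 with human Dicer alone.

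The 5′ end of the 5p arm, which Drosha sets in both groups, had a median precision of 100% and 99.6% with human Dicer and 100% and 99.4% in WT cells over 52 arms (exact permutation p = 1, n = 2 each). The 52 arms include miR-484-5p, which comes from a capped precursor, so its 5′ end is not a cut of Drosha. The limma test called 0 of 52 (0%), with 0 at an unadjusted p under 0.05, and edgeR had 0 by both counts. Without WT + mCherry replicate 1 limma called 6 arms, and without WT + mCherry replicate 2 it called 3. Groups did not overlap for 3 arms that started later (5.77%) and 9 that started earlier (17.3%) with human Dicer, and the median shift between enzymes was 0.00 nt at both replicate numbers.

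The 3′ end of the 5p arm, the other cut of Dicer, was less exact in all libraries, and in replicate 2 it lay further out with human Dicer. Its median precision over 52 arms was 98.0% and 81.2% with human Dicer and 87.5% and 75.5% in WT cells (89.6% ± 11.8 against 81.5% ± 8.49, SD, n = 2 each, exact permutation p = 0.667). In replicate 2, 60 of 68 arms with 1000 or more reads in both libraries ended later with human Dicer by more than 0.01 nt, 4 ended earlier and 4 lay within 0.01 nt. The median shift was 0.12 nt, with quartiles of 0.03 and 0.23 nt. In replicate 1, 20 of 45 arms ended later, 13 earlier and 12 within 0.01 nt, with a median of 0.00 nt, so replicate 1 did not show the shift. This is 1 library against 1, so there is no test of it. It was picked out after all 4 kinds of end had been looked at in both replicates, at several read minimums, under 2 ways of matching and in the other groups. With up to 2 unmatched 3′ bases allowed, it stood at 64 later and 8 earlier of 75 in replicate 2 (median 0.11 nt) and at 21 later and 23 earlier of 49 in replicate 1 (median -0.01 nt).

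The limma test over the 52 arms called 0 (0%), with 0 at an unadjusted p under 0.05, and edgeR also called 0, with 1 at an unadjusted p under 0.05. Both human Dicer values lay beyond both WT values for 13 arms (25%), and before both for 0 (0%). The 6 arms of lowest p with the same direction at both replicate numbers were miR-181b-5p, miR-30a-5p, miR-423-5p, miR-21a-5p, miR-26b-5p and let-7g-5p, all with later mean ends with human Dicer (limma adjusted p = 0.848 for each). For miR-21a-5p the mean end lay at 0.00 and 0.12 nt from the usual end with human Dicer and at -0.07 and -0.04 nt in WT cells. For miR-30a-5p it lay at -0.16 and -0.32 nt with human Dicer and at -0.39 and -0.48 nt in WT cells. Both human values lay beyond both WT values in each. For miR-181b-5p it lay at 0.00 and -0.92 nt with human Dicer and at -1.41 and -1.76 nt in WT cells, but its fitted shift turned to -0.21 nt when only ends within 2 nt were counted.

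The forms behind these means differ by 1 base at a time, and are read from GENCODE M21 hairpins. An added base that equals the next base of the hairpin counts as matched. A form that ends in A or U can therefore also hold tailed reads of the next shorter form, and the 2 cannot be told apart here. The most abundant 3 of the 6 arms are shown, with the last base in capitals.
miR-21a-5p, 22 nt: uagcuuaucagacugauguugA
miR-21a-5p, 23 nt: uagcuuaucagacugauguugaC
miR-21a-5p, 24 nt: uagcuuaucagacugauguugacU
miR-26b-5p, 21 nt: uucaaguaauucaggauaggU
miR-26b-5p, 22 nt: uucaaguaauucaggauagguU
miR-26b-5p, 23 nt: uucaaguaauucaggauagguuG
miR-30a-5p, 23 nt: uguaaacauccucgacuggaagC
miR-30a-5p, 24 nt: uguaaacauccucgacuggaagcU
The 22 nt form of miR-21a-5p made up 12.6% and 12.6% of its reads with human Dicer and 15.5% and 17.3% in WT cells. Its 24 nt form made up 17.7% and 26.1% with human Dicer and 16.2% and 21.2% in WT cells, higher at each replicate number. These shares and the mean ends leave out reads with unmatched 3′ bases. For miR-21a-5p such reads were 28.1% and 21.1% with human Dicer and 11.4% and 17.4% in WT cells, so unlike parts of the arm are compared. The 21 nt form of miR-26b-5p made up 0.038% and 1.61% with human Dicer and 22.6% and 5.64% in WT cells, and its 23 nt form 0.146% and 18.1% against 0.00408% and 3.62% in WT cells. The 24 nt form of miR-30a-5p made up 84.3% and 75.3% with human Dicer and 61.1% and 65.7% in WT cells. Its 23 nt form made up 15.7% and 17.98% with human Dicer and 28.4% and 23.5% in WT cells, so in both replicates the shorter form had the smaller share with human Dicer.

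**Figure D5:**
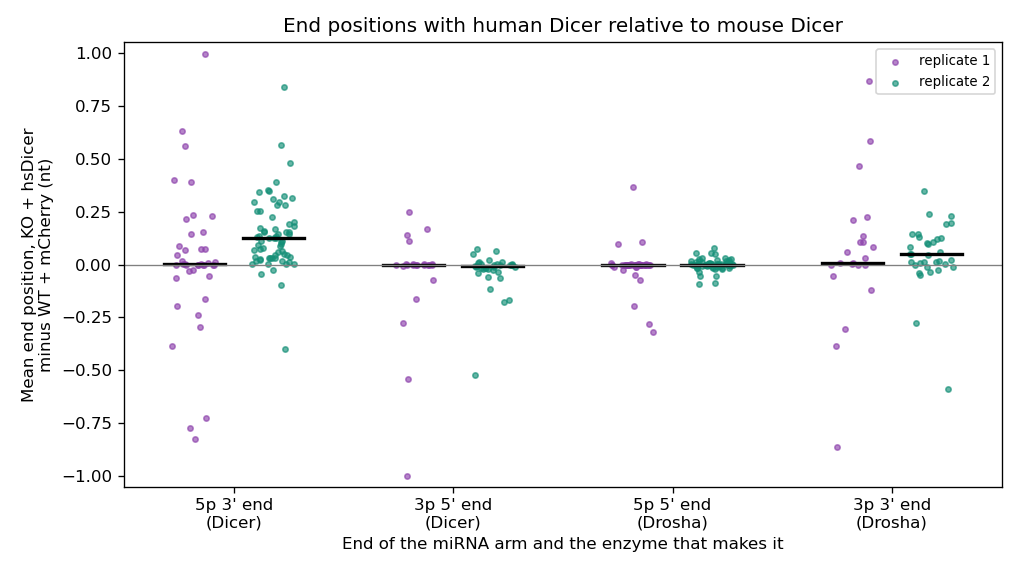
Shift of the mean end position, KO + hsDicer minus WT + mCherry, in nt (y axis), for the 4 kinds of end (x axis) and both replicates. Points are arms with 1000 or more reads in both libraries of the replicate, bars are medians, and 6 points beyond 1 nt are not drawn. For the 3′ end of 5p arms the replicate 2 points lie mostly above 0 (median 0.12 nt) and the replicate 1 points on both sides (median 0.00 nt).

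The 3′ end of the 3p arm, made by Drosha, had a median precision of 88.9% and 86.6% with human Dicer and 79.3% and 80.7% in WT cells over 24 arms (87.7% ± 1.64 against 79.98% ± 0.961, SD, n = 2 each). The 24 arms include miR-320-3p, whose precursor skips Drosha. The groups did not overlap, and the exact permutation p of 0.333 is the smallest the design allows. Over the 21 arms with 1000 or more reads in each library the values were 89.4% and 87.18% with human Dicer and 87.17% and 80.6% in WT cells, so that the groups all but met. The limma test called 0 of 24 (0%), with 1 at an unadjusted p under 0.05 (edgeR 0 by both counts). That arm was miR-24-3p, whose 3′ end lay at -0.0353 and -0.0933 nt with human Dicer and at -0.247 and -0.221 nt in WT cells (shift 0.17 ± 0.0286 nt SE, limma adjusted p = 0.199). These positions leave out its reads with unmatched 3′ bases. Such reads were 33.6% and 17.4% with human Dicer and 71.9% and 31.1% in WT cells, so unlike parts of the arm are compared. Groups did not overlap for 6 arms that ended later (25%) and 1 that ended earlier (4.17%). In replicate 2, 23 of 34 arms ended later and 8 earlier (median 0.05 nt), but with unmatched 3′ bases allowed the counts were 20 and 17 of 43 (median 0.01 nt).

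Lengths and unmatched 3′ bases were also compared. Read by read, 5p arms had a mean length of 22.56 and 22.56 nt with human Dicer and 22.43 and 22.39 nt in WT cells (exact permutation p = 0.333, n = 2 each), a mean that the most abundant arms weigh most. The 3p arms had 22.18 and 22.29 nt with human Dicer and 22.08 and 22.20 nt in WT cells, with overlap. The distance from the 5p end to the 3p start, the excised loop, was shorter with human Dicer in 43 and longer in 14 of 61 hairpins in replicate 2 (median difference -0.17 nt). It is built from the end positions given for that replicate and is no separate support. Reads of 5p arms with any unmatched 3′ bases made up 14.6% and 12.5% with human Dicer and 8.60% and 10.9% in WT cells (exact permutation p = 0.333, n = 2 each). Those with only extra A made up 8.17% and 7.76% with human Dicer and 5.99% and 8.11% in WT cells, with overlap. Those with only extra U were lower with human Dicer, without overlap (means 0.681% against 1.28%, exact permutation p = 0.333, n = 2 each). In replicate 2 the A and U shares were thus both lower with human Dicer, so the excess there lay in other or mixed bases. In replicate 1 extra A was part of it. What the other bases are was not tested, so the excess is not shown to be tailing. Of 48 abundant 5p arms, 11 had a higher share with any unmatched bases without overlap, and 4 a lower one. Over 48 abundant 5p arms the median share with any unmatched 3′ bases was 2.54% and 7.45% with human Dicer. In WT cells it was 1.82% and 7.47%. Reads of 3p arms with any unmatched 3′ bases made up 10.6% and 10.7% with human Dicer and 9.54% and 12.5% in WT cells. Reads of 3p arms that carried only extra U beyond the hairpin sequence made up 3.12% and 4.39% with human Dicer and 6.44% and 8.26% in WT cells (exact permutation p = 0.333, n = 2 each). The arm miR-24-3p had 22.3% and 10.5% of its reads so extended with human Dicer and 60.7% and 23.4% in WT cells, whereas over 24 abundant 3p arms the medians were 0.167% and 4.30% with human Dicer and 0.37% and 4.33% in WT cells.

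Set beside the other human enzymes in replicate 2, the 3′ end of 5p arms ended later than in WT cells in 44 and earlier in 23 of 73 arms with K70A (median 0.06 nt), and in 23 and 23 of 49 arms with Y971A/Y972A (median 0.00 nt). With unmatched 3′ bases allowed the K70A counts were 34 and 38 of 76 arms (median -0.01 nt). All 3 comparisons share the WT library, and differences between the human enzymes were not tested.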

How the data were processed

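Per the labels' protocols, total RNA was gel-cut at 15 to 50 nt and sequenced by a standard Illumina small RNA procedure. The authors' deposited files hold counts: every distinct sequence, adapter included, beside its tally. Their aligner, caller and build: not given in the sources used here. The labels' 3′ adapter was cut off where found by its first 12 bases or by at least 5 at the end of the read. Inserts of 18 to 26 nt were matched exactly to the sense strand of 1174 miRNA hairpins (1087 names) of GENCODE M21, and reads matching several names were left out (0.539% to 0.749% of miRNA reads in the 4 libraries). Arms were split midway between the RefSeq mature arms for 650 hairpins and at the hairpin midpoint otherwise. Exact matching leaves out reads with added 3′ bases, so arms that are often tailed are undercounted. An alternative allowed 2 such bases at most and widened the lengths to 15 and 30 nt. Its use for ranks, families and arm choice was added after seeing the data.

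Levels and 5p to 3p ratios were tested with edgeR 4.0.16 (quasi-likelihood, 4 libraries, library size the miRNA reads, arms with 20 or more reads in total), and mean end positions within 5 nt of the usual end with limma 3.58.1 (100 or more reads in each library). All tests were 2-sided with Benjamini-Hochberg adjustment, and a p under 0.05 passed. SEs for edgeR were derived from the change and its F statistic. Shares and precisions were compared by exact permutation. The tests were also run on simulated data. For levels and ratios the simulated spread was set below the biological coefficients of variation found here (2.67 and 1.90). For 3′ ends it was also set below the spread between replicates. There the median absolute difference was 0.167 nt with human Dicer and 0.185 nt in WT cells for 5p arms. For 3p arms it was 0.0935 nt with human Dicer and 0.123 nt in WT cells. That run therefore does not show how these tests behave at the spread of these libraries. R 4.3.3, DESeq2 1.42.0, Python 3.11.15, pandas 2.3.3 and scipy 1.17.1 were used.

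Named arms were the 10 most abundant, up to 6 of lowest p in each direction, 10 rank movers, members of the lists, 8 hairpins of lowest p for ratios and 6 arms for each end, and the text gives them in part. The arms miR-125a-5p, miR-182-5p, miR-92a-3p, miR-423-3p and let-7d-5p, the other groups' values, the loop, length and tail readouts and the replicate 2 end shift were chosen after their values were seen. Members and lists were chosen with earlier results of these data known. Reads are not independent molecules, so they understate counting error.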

Additional observations from a re-analysis of the deposited data

How the results depend on the processing

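Counts of calls stayed at 0 under most settings. DESeq2 called 3 arms and 3 seed families. Leaving out each library in turn gave 0 to 1 arms and 0 to 1 seed families (miR-29b-3p and its seed, without WT + mCherry replicate 2), 0 to 2 arms for the 5′ end of 3p arms (without KO + hsDicer replicate 2), and 0 to 6 arms for the 5′ end of 5p arms (6 without WT + mCherry replicate 1 and 3 without WT + mCherry replicate 2); a lone library was then assumed to vary like the others. No replicate pairing is stated in the labels. Deviations of same-numbered libraries correlated at 0.321 over 161 arms, with only 2 pairs. The replicate block called 0 arms (93 at an unadjusted p under 0.05), 0 seed families (63 at an unadjusted p under 0.05), 0 ratios and 0 ends.

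Library size from all inserts gave a median log2 change of -1.18 over 464 arms, against -0.01, with a median move per arm of -1.31. It turned the change of miR-21a-5p to -0.54, miR-29b-3p to -0.17, let-7c-5p to -0.60, miR-24-3p to -0.55, let-7i-5p to -0.44, miR-31-5p to -0.29, miR-99b-5p to -0.57 and miR-32-5p to -0.75. TMM gave -0.0900 for miR-21a-5p, -0.17 for let-7c-5p and -0.0426 for let-7i-5p, and unmatched 3′ bases gave -0.0414 for let-7c-5p. That matching also turned the replicate 2 difference of the miR-23/27/24 sum to -0.465 percentage points from 1.17, and left 0.198 of 1.47 in replicate 1. Of 173 abundant arms 31 then lay higher and 31 lower without overlap. Ends within 2 nt gave -0.21 nt for miR-181b-5p.

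With 1 library left out, log2 changes spanned -0.27 to 0.30 for miR-21a-5p, -0.0715 to 1.76 for miR-29b-3p, -0.43 to 0.63 for let-7c-5p, -0.91 to 2.60 for miR-24-3p, -0.36 to 0.89 for let-7i-5p, -1.04 to 0.41 for let-7b-5p, -0.26 to 2.80 for miR-31-5p, -0.0209 to 0.39 for miR-99b-5p, -1.89 to 0.36 for let-7f-5p, -17.01 to 4.87 for miR-99a-5p, -0.96 to 4.36 for miR-32-5p, -0.13 to 4.75 for miR-15b-5p and -0.0763 to 10.82 for the miR-191 ratio. For 5′ ends of 3p arms they spanned -0.000767 to 0.00564 nt for miR-22-3p and -0.00513 to 0.0247 nt for miR-28a-3p. Of all values for single arms under the alternatives, 638 kept direction and side of the threshold, 36 turned and 6 passed the threshold.

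Without miR-22-3p the 5p share differed by -5.99 percentage points in place of 0.0104. The difference in precision of 5′ ends of 3p arms was 0.255 points at 20 reads and 0.235 at 1000, in place of -0.402. That of 3′ ends of 3p arms was 4.38 points at 1000 reads, in place of 7.76. The replicate 2 shift of 0.124 nt, with its alternatives chosen after seeing the data, was 0.0475 nt at 20000 reads, and in replicate 1 it was 0.000385 nt at 1000 and 0.00442 nt at 20000 reads. The cause was not tested for any of these. At this depth a count of 0 allows a share of up to 0.000111% in the shallowest library.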
